A study of Mus musculus with 10 samples.

Results

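The genes described here are 36 genes of the oligodendrocyte lineage and of myelin, measured by RNA-seq in mouse somatosensory cortex. They were chosen by name, as a list of known lineage and myelin genes, out of 23283 genes named in the 2.5-month table and 54427 in the 3-month table, and all 36 were found in both. They comprise 30 genes of lineage identity and of mature, myelin-forming oligodendrocytes and 6 genes of precursor or newly committed cells (Pdgfra, Cspg4, Vcan, Gpr17, Enpp6 and Bcas1). Oligodendrocytes wrap axons of the central nervous system in myelin, a stack of membrane rich in galactolipids, cholesterol and a few abundant proteins. They arise from precursor cells that carry the receptor PDGFRα and the proteoglycan NG2, pass through a short-lived committed stage, and then turn on myelin genes under SOX10, OLIG2 and MYRF. Growth factors and electrical activity from neurons are known to act on precursor division and on myelination.

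The samples come from mice with conditional loss of Nsd1, which encodes a methyltransferase for lysine 36 of histone H3. The Nex model was sampled at 2.5 months, with 3 control libraries (Nex_Ctrl; 2 labelled Nsd1fl/+ and 1 labelled Nsd1fl/fl) and 3 libraries labelled Nsd1Nex-cKO (Nex_cKO). The Camk2a model was sampled at 3 months, with 2 control libraries (Camk2a_Ctrl; both Nsd1fl/+) and 2 labelled Nsd1Camk2a-cKO (Camk2a_cKO). Nex (Neurod6) Cre is active in excitatory neurons of the cortex from soon after their birth, and Camk2a Cre in excitatory neurons at later ages, so that neither driver is made to act in the oligodendrocyte lineage. Cre in the controls is not stated, nor whether each library came from a separate mouse, so p-values measure only the spread between these samples, which may be technical.

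Excitatory cortical neuron transcripts were present throughout, with the vesicular glutamate transporter Slc17a7 at 464 to 589 FPKM in the 2.5-month table and 248 to 297 FPKM in the 3-month table. FPKM counts fragments per kilobase of transcript, scaled to the mapped fragments of the library. Nsd1 was listed in the 2.5-month table only as a row joined with its neighbour Prelid1, which does not check the deletion (132 ± 8.36 FPKM in Nex_Ctrl and 105 ± 13.6 FPKM in Nex_cKO; SD, n = 3 each; adjusted p = 0.0863). In the 3-month table Nsd1 itself had 5.61 and 8.87 FPKM in Camk2a_Ctrl and 4.31 and 4.99 FPKM in Camk2a_cKO (adjusted p = 0.685). Of the drivers' own genes, Neurod6 fell from 31.6 ± 2.30 to 18.0 ± 3.85 FPKM (SD, n = 3 each; adjusted p = 0.00718) in the Nex model, and Camk2a had 525 FPKM in Camk2a_Ctrl and 552 FPKM in Camk2a_cKO (adjusted p = 0.923). Nex_cKO replicate 3 differed from its group. Y-linked Ddx3y was at 16.2 FPKM there and listed at 0 in the other 5 Nex libraries, and unnamed rows held 41.55% of its summed FPKM, against 2.33% to 19.4%. In the 4 Camk2a libraries Ddx3y ranged from 10.98 to 12.35 FPKM. Reads recovered from the 3-month table numbered 16901717 to 20074933 per library. The depth of the 2.5-month libraries is unknown.

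Upstream sequences of 3 members are shown, to compare a member that rose with 2 that did not pass the test: Cspg4, the member that was higher in cKO cortex, Pdgfra, the other classical precursor marker, and Mag, a myelin gene. Each is the 250 bases before the RefSeq start (GRCm38.p6), 5′ to 3′ on the gene's strand. Capitals mark matches, on either strand, to CTGGCAC (a motif of MYRF), ACAATG or ACAAAG (SOX factors), or CAGCTG or CAGATG (E-boxes of the kind OLIG2 binds). CATCTG and CTTTGT are such matches read on the other strand. No 2 of these motifs share a position in the sequences shown.
Cspg4, chr9:56864854-56865103, plus strand: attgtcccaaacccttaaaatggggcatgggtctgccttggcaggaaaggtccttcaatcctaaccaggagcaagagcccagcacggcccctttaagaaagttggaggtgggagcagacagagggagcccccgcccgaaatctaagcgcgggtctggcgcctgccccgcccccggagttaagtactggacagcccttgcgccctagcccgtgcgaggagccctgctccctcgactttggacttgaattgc
Pdgfra, chr5:75152001-75152250, plus strand: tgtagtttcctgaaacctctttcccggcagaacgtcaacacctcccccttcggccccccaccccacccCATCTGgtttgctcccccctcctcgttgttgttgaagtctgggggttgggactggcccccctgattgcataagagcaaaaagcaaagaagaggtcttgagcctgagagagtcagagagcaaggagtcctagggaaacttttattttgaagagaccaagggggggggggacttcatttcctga
Mag, chr7:30914923-30915172, minus strand: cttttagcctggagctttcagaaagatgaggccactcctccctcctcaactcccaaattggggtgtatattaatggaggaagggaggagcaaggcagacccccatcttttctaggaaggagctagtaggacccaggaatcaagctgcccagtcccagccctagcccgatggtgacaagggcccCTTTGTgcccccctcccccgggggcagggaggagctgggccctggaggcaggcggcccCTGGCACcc

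The Cspg4 stretch held 12 CG dinucleotides and none of these motifs, the Pdgfra stretch 4 CG and 1 E-box, and the Mag stretch 3 CG, 1 SOX and 1 MYRF motif. RefSeq promoter entries of 300 bases (250 before to 50 after a start) were matched for 26 of the 36 members, with 39 entries in all. The MYRF motif was in 6 of the 39 (15.4%), against 5.01% of 32851 mouse promoters, and those 6 belonged to Mag, Cnp, Hapln2, Opalin and Lpar1. A SOX motif was in 19 (48.7%, against 28.6%) and an E-box in 13 (33.3%, against 30.6%). Another Mag entry, chr7:30914272-30914571, held none of these motifs, nor did the entries of Mog and Ugt8a, so the Mag stretch shown does not stand for all myelin genes. Several entries of one gene overlap, and the counts are of entries, so that a site in overlapping entries counts more than once. This was so for the MYRF and SOX sites of Mag and for the SOX site of Gal3st1. A match describes letters only.

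In control cortex the members spanned nearly 3 orders of magnitude. In the 2.5-month table Mbp, the main protein of compact myelin's cytoplasmic face, was highest at 1007 ± 32.1 FPKM (SD, n = 3). Mobp, a related small basic protein, followed at 171 FPKM and Qdpr, a pteridine reductase enriched in oligodendrocytes, at 120.0 FPKM, and each of these 3 lay above every library of the next. Below them Cnp (95.9 FPKM), Car2 (92.7 FPKM) and Trf (90.9 FPKM) overlapped one another, as did Mag and Mal at 54.7 and 54.1 FPKM. Cldn11 (62.6 FPKM) overlapped both Enpp2 (63.8 FPKM) and Olig1 (60.4 FPKM), while every Enpp2 value lay above every Olig1 value. Fa2h, Sox10, Opalin, Ugt8a and Olig2, at 14.0 to 15.5 FPKM, also formed a run of neighbours that overlapped in turn. The precursor genes were low, with Pdgfra at 6.30, Cspg4 at 2.82, Vcan at 2.19 and Enpp6, the lowest member, at 1.27 FPKM, apart from Bcas1 at 39.1 FPKM and Gpr17 at 8.58 FPKM. Summed over genes within each Nex_Ctrl library, the 30 mature and lineage genes held 2076 to 2248 FPKM and the 6 precursor genes 56.0 to 67.2 FPKM. Mbp alone made up 45.0% to 46.0% of the members' sum.

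**Figure D1:**
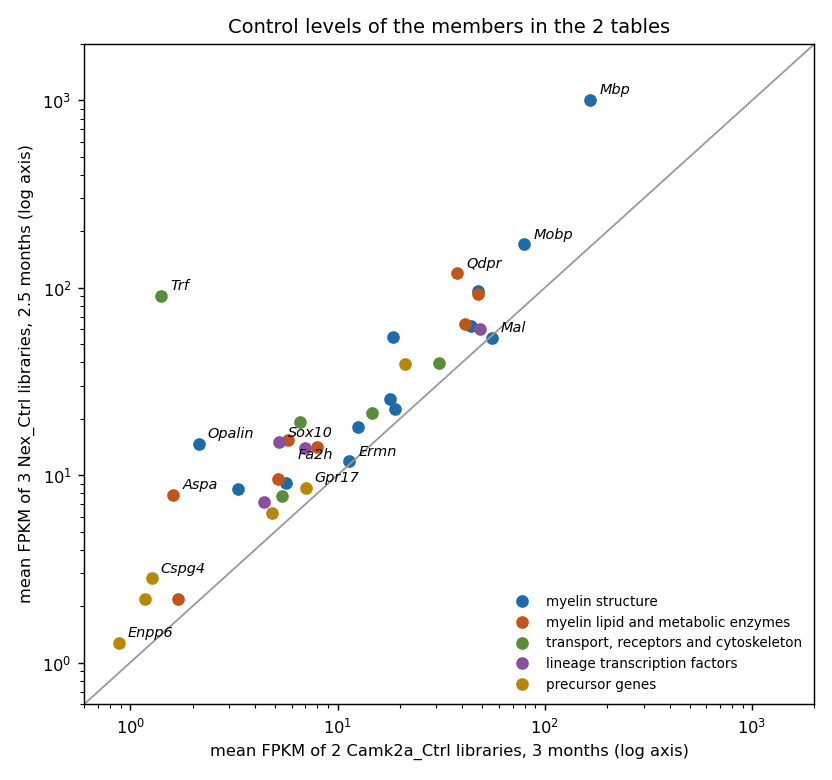
Mean FPKM of each of the 36 genes in the 3 Nex_Ctrl libraries (vertical, log axis) against the mean in the 2 Camk2a_Ctrl libraries (horizontal, log axis), coloured by role; the line marks equal values. Mbp is highest and Enpp6 lowest in both, and Trf lies farthest from the line, at 90.9 FPKM against 1.41 FPKM.

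In the 3-month table Mbp (166 FPKM), Mobp (79.7 FPKM) and Mal (55.6 FPKM) led, and Enpp6 (0.879 FPKM) was again last. The 2 tables were normalized separately and with different gene models, so a level may not be set against its counterpart as a change with age. Their ratio was largest for Trf, which encodes the iron carrier transferrin (64.3), then for Opalin (6.89), Mbp (6.07) and Aspa (4.86). Trf is therefore read within each table only.

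In Nex_cKO cortex most oligodendrocyte genes lay somewhat below control, and few differences passed the test. Fa2h, which makes the hydroxylated fatty acids of myelin galactolipids, Sox10, a transcription factor of the lineage, and Gpr17, a receptor of committed precursors, fell. Cspg4, which encodes NG2, rose. Thus 3 of 36 members were lower and 1 was higher at adjusted p under 0.05, next to 4.06% lower and 4.47% higher among all 12528 genes tested (8.53% in either direction). All 36 members passed the filter on low values. The difference was negative in 32 members, against 59.5% of all genes, and positive in Opalin, Aspa, Cspg4 and Vcan. In 17 members every cKO library lay below every control library (18.9% of all genes), and in 1, Cspg4, every cKO library lay above (11.5% of all genes). The members' median log2 change was -0.18, next to -0.043 for all genes tested.

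**Figure D2:**
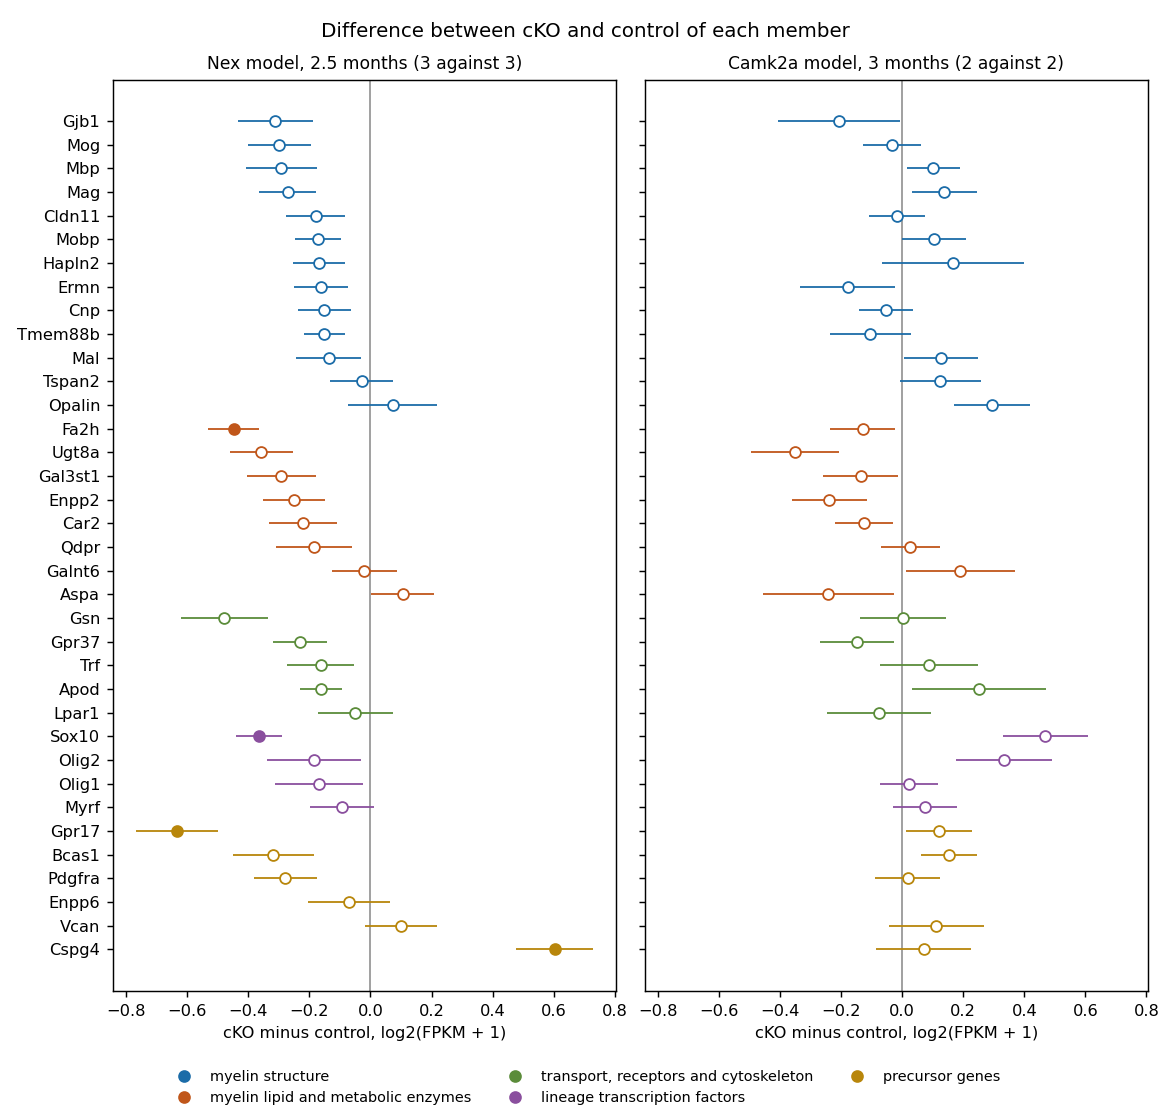
Difference between cKO and control of each gene, with its standard error, on the log2(FPKM + 1) scale, in the Nex model (left) and the Camk2a model (right); genes are grouped by role and filled points have adjusted p under 0.05. In the Nex model 32 of 36 points lie left of 0 and 4 are filled, and in the Camk2a model 14 of 35 lie left of 0 and none is filled.

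Each of the 3 Nex_cKO libraries had a lower median than each control. The median log2 ratio of the 36 genes to the control mean was -0.16, -0.16 and -0.23 in the cKO libraries and 0.046, -0.054 and -0.00050 in the controls, while over all genes it was -0.052 to -0.031 in the cKO libraries. The lowest value of a gene fell in Nex_cKO replicate 3 for 16 members, in replicate 2 for 14 and in replicate 1 for 3, and in a control for 3. Without Nex_cKO replicate 3, the library that stood apart, 4 members were lower (Fa2h, Sox10, Gpr17 and Enpp2) and 1 higher (Cspg4). Of all 12671 genes tested in the same libraries, 564 were lower and 635 higher. Of the 36 members 29 were negative, against 7517 of the 12671 genes. In 21 members the cKO libraries lay wholly below the controls (58.3%, against 25.9% of all genes). The members' median was -0.16, next to -0.036 for all genes. The calls depended on single libraries. No member was called without Nex_Ctrl replicate 1, 1 was called without Nex_Ctrl replicate 2 (Fa2h) or replicate 3 (Gpr17), and 2 were called without Nex_cKO replicate 1 (Fa2h and Gpr17). Without Nex_cKO replicate 2 there were 5 (Fa2h, Sox10, Gpr17, Mag and Gsn, all lower). The count over all genes moved as well. With all libraries 509 of 12528 genes were lower and 560 higher. Without Nex_Ctrl replicate 1, 2 or 3 there were 160, 205 and 161 lower and 443, 461 and 444 higher. Without Nex_cKO replicate 1, 2 or 3 there were 219, 685 and 564 lower and 457, 580 and 635 higher.

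**Figure D3:**
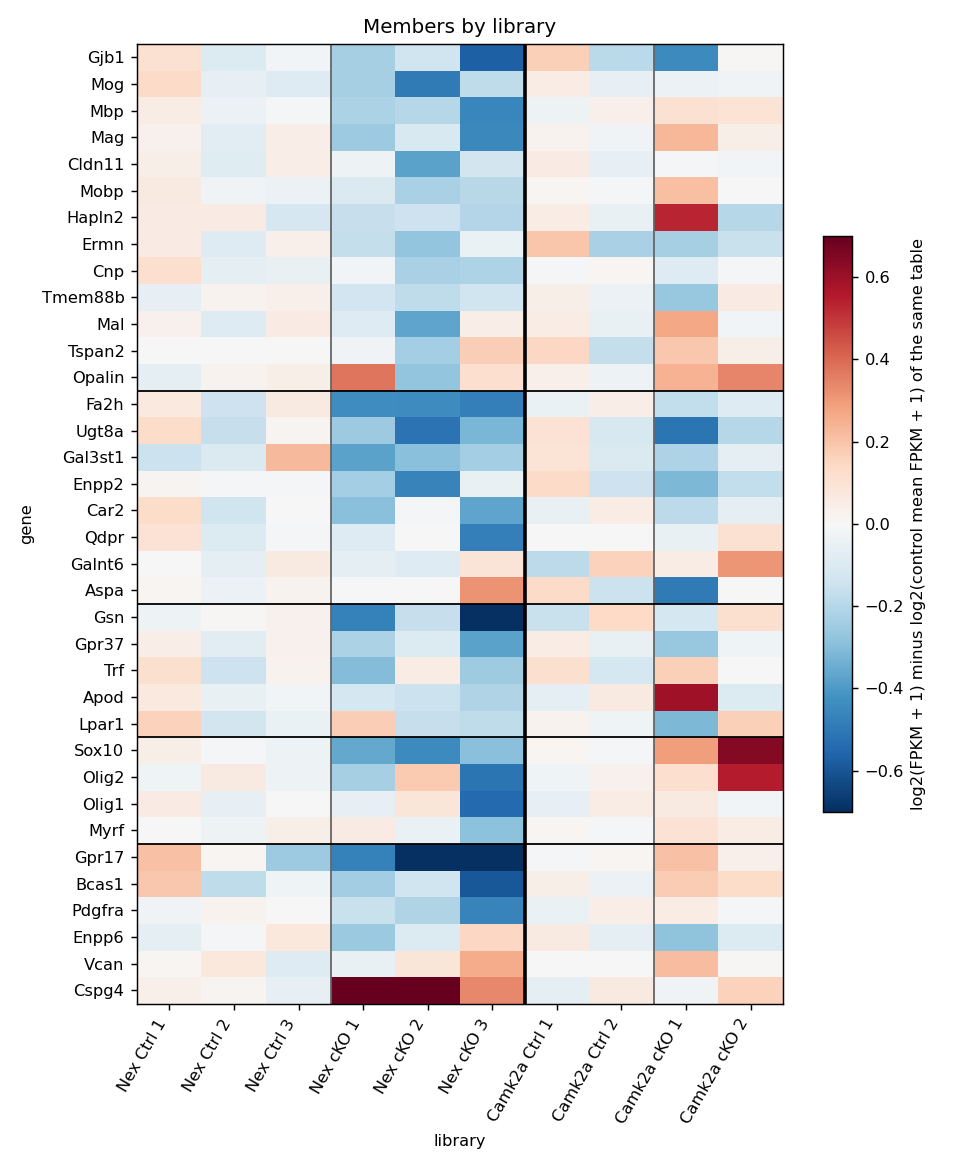
Each gene (rows, grouped by role) in each library (columns), coloured by log2(FPKM + 1) minus the same value of its own table's control mean. Blue prevails in the 3 Nex_cKO columns, with Cspg4 red in all 3, and the Camk2a_cKO columns show both colours.

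Of the 13 genes of myelin structure, none passed the test, 12 were negative and 7 lay wholly below the controls, with a median log2 change of -0.17. Mbp had 1043, 980 and 999 FPKM in Nex_Ctrl and 863, 878 and 733 FPKM in Nex_cKO, a log2 change of -0.29 (SE 0.12, adjusted p = 0.168). The 3 cKO values were all below the 3 controls, and Nex_cKO replicate 3 was the lowest. Mog, a protein of the outermost myelin lamella, had 28.2, 24.6 and 24.0 FPKM in Nex_Ctrl and 21.6, 17.9 and 22.6 FPKM in Nex_cKO (log2 change -0.30, adjusted p = 0.120). Mag, an adhesion molecule on the membrane that faces the axon, had 55.9, 51.7 and 56.4 FPKM against 45.6, 50.6 and 39.7 FPKM (log2 change -0.27, adjusted p = 0.123). Without Nex_cKO replicate 2, Mag passed the test (log2 change -0.35, adjusted p = 0.0414). Gjb1, a gap junction protein of oligodendrocytes, had the most negative difference of this group, at 8.48 ± 0.673 FPKM in Nex_Ctrl and 6.69 ± 1.17 FPKM in Nex_cKO (SD, n = 3 each; log2 change -0.31, adjusted p = 0.169). Gjb1 lies on the X chromosome, and its lowest value, 5.38 FPKM, was in Nex_cKO replicate 3. That library held the lowest value of 16 of the members, and a part of sex in the Gjb1 value was not tested. Without that library the log2 change of Gjb1 was -0.18, and that of Mog was -0.36.

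Mobp, Hapln2, which organises the matrix at nodes, and Tmem88b were also below every control, with log2 changes of -0.15 to -0.17 and adjusted p of 0.206 to 0.271. Cnp, Cldn11, Ermn and Mal, which serve myelin's cytoplasmic channels, tight junctions, cytoskeleton and vesicle transport, had log2 changes of -0.14 to -0.18 with groups that overlapped. Tspan2 (22.6 FPKM in controls, 22.3 FPKM in Nex_cKO) and Opalin (14.7 and 15.8 FPKM) lay closest to 0. The sign of Tspan2 turned with quantile normalization (0.046) and with rescaling by the median ratio (0.015). Overlapping genes bear on 2 of these values. Mbp shares its locus with the pseudogene Rpl21-ps8, and Cnp with Dnajc7, each on the opposite strand, and whether the counting used strand is not given in the sources used here.

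Among the 8 lipid and metabolic enzymes, 1 was lower, 7 were negative and 4 lay wholly below the controls, with a median log2 change of -0.24. Fa2h (GRCm38 chromosome 8, 111345135 to 111393824, minus strand) had 16.3, 13.9 and 16.2 FPKM in Nex_Ctrl and 11.2, 11.2 and 10.8 FPKM in Nex_cKO. Its cKO values lay close together and below the lowest control. It fell by 0.45 on the log2 scale (SE 0.083, adjusted p = 0.0115), the smallest adjusted p of the 36. The call was lost without Nex_Ctrl replicate 1 (adjusted p = 0.0607) or Nex_Ctrl replicate 3 (0.0615). Ugt8a, which adds galactose to ceramide in the same pathway, had 15.6, 12.6 and 14.3 FPKM against 11.7, 9.59 and 11.2 FPKM (log2 change -0.36, adjusted p = 0.0715). Gal3st1, which sulfates the product to sulfatide, had 9.49 ± 1.55 and 7.52 ± 0.402 FPKM (SD, n = 3 each; log2 change -0.29, adjusted p = 0.159). Each of these 3 enzymes of galactolipid and sulfatide synthesis had its cKO libraries below every control, and Fa2h alone passed the test.

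Enpp2, or autotaxin, had 64.7, 63.4 and 63.3 FPKM in Nex_Ctrl and 53.8, 45.9 and 61.5 FPKM in Nex_cKO (log2 change -0.25, adjusted p = 0.176). Without Nex_cKO replicate 3, whose value was nearest to the controls, it passed the test (log2 change -0.35, adjusted p = 0.0238). Car2, a carbonic anhydrase, and Qdpr had log2 changes of -0.22 and -0.19 with overlapping groups. Aspa, which frees acetate from N-acetylaspartate, had 7.86 FPKM in Nex_Ctrl and 8.58 FPKM in Nex_cKO (log2 change 0.11, adjusted p = 0.588). Galnt6, a glycosyltransferase, had 2.18 and 2.14 FPKM, and its sign turned with rescaling by the median ratio (0.012).

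The 5 genes of transport, receptors and cytoskeleton were all negative, 3 of them wholly below the controls, and none passed the test. Gsn, the actin-severing protein gelsolin, had 20.9, 21.5 and 21.9 FPKM in Nex_Ctrl and 15.1, 19.1 and 11.8 FPKM in Nex_cKO (log2 change -0.48, SE 0.14, adjusted p = 0.0769). The controls lay close together and the cKO libraries were spread, and the value without Nex_cKO replicate 3 was -0.32, against -0.64 without Nex_cKO replicate 2 (adjusted p = 0.00865). Apod, a lipid carrier, had 39.6 ± 1.82 FPKM against 35.3 ± 1.14 FPKM and Gpr37, an orphan receptor, 19.1 ± 0.949 FPKM against 16.2 ± 1.66 FPKM (SD, n = 3 each; adjusted p = 0.191 and 0.158). Trf (log2 change -0.16) and the lysophosphatidic acid receptor Lpar1 (-0.050) had overlapping groups.

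Of the 4 lineage transcription factors, Sox10 was lower and the others did not pass the test. Sox10 (chromosome 15, 79154908 to 79165240, minus strand) had 15.4, 14.8 and 14.6 FPKM in Nex_Ctrl and 11.4, 10.7 and 11.996 FPKM in Nex_cKO. The highest cKO library lay below the lowest control, and the libraries of each group lay close together. It fell by 0.37 (SE 0.075, adjusted p = 0.0187), and by 0.40 without Nex_cKO replicate 3 (adjusted p = 0.0115). The adjusted p was 0.0650 to 0.0859 without any one of the controls and 0.0668 without Nex_cKO replicate 1. Its nearest tested neighbour Polr2f, a polymerase subunit on the opposite strand that ends 3134 bases away, had 69.7 FPKM in Nex_Ctrl and 54.4 FPKM in Nex_cKO (log2 change -0.35, adjusted p = 0.0931), a difference of like size to that of Sox10.

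Olig2, which sets the lineage up, had 13.7, 14.7 and 13.6 FPKM in Nex_Ctrl and 11.8, 16.0 and 9.53 FPKM in Nex_cKO (log2 change -0.19, adjusted p = 0.511). Olig1, its neighbour, had 63.0, 58.0 and 60.4 FPKM and 58.1, 64.3 and 41.2 FPKM (log2 change -0.17, adjusted p = 0.525). In both genes Nex_cKO replicate 2 was the highest of all 6 libraries and replicate 3 the lowest, and without replicate 3 the log2 change was -0.024 for Olig2 and 0.016 for Olig1. Myrf, which drives myelin genes in differentiating cells, had 7.22 ± 0.228 FPKM and 6.75 ± 0.931 FPKM (SD, n = 3 each; log2 change -0.092, adjusted p = 0.645), and 0.0063 without Nex_cKO replicate 3.

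The precursor genes went in both directions. Gpr17 had 10.1, 8.66 and 7.02 FPKM in Nex_Ctrl and 5.91, 4.62 and 4.90 FPKM in Nex_cKO, which lay below every control in spite of the spread among controls. It fell by 0.63 (SE 0.13, adjusted p = 0.0216), the most negative change of the 36, and the call was lost without Nex_Ctrl replicate 1 (adjusted p = 0.0818) or replicate 2 (0.0783). Gpr17 overlaps Lims2 on the opposite strand, which is listed in a row joined with Wdr33 (20.3 FPKM in Nex_Ctrl and 17.0 FPKM in Nex_cKO).

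Cspg4 (chromosome 9, 56865033 to 56899870, plus strand) had 2.91, 2.87 and 2.67 FPKM in Nex_Ctrl and 5.45, 5.26 and 3.82 FPKM in Nex_cKO. Every cKO library was above every control, with Nex_cKO replicate 3 the closest to them. It rose by 0.60 on the log2(FPKM + 1) scale (SE 0.13, adjusted p = 0.0213), and its mean FPKM was 1.72 times that of the controls. Without Nex_cKO replicate 3 the change was 0.74 (adjusted p = 0.00243), and without any one of the other libraries the adjusted p was 0.0507 to 0.0864. Its nearest tested neighbours on either side, Lingo1 and Snx33, had log2 changes of -0.29 and -0.017 (adjusted p = 0.271 and 0.943). NG2 is also made by pericytes. The pericyte genes Pdgfrb (3.64 FPKM in Nex_Ctrl and 3.96 FPKM in Nex_cKO), Rgs5 (16.5 and 16.4 FPKM) and Kcnj8 (1.65 and 1.81 FPKM) had overlapping groups. They were picked, after their values were seen, from 17 endothelial and mural markers. Of the 17, 14 were negative, 3 positive and 6 wholly below the controls. These counts mix endothelial with mural genes, and the other mural markers are not reported here, so they do not show pericyte genes as a set. The part of pericytes in the Cspg4 value was not tested.

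Pdgfra, the receptor that drives precursor division, did not rise with Cspg4. It had 6.17, 6.42 and 6.30 FPKM in Nex_Ctrl and 5.55, 5.30 and 4.27 FPKM in Nex_cKO (log2 change -0.28, SE 0.10, adjusted p = 0.146), in a row joined with the microRNA gene Mir7025. Bcas1, of newly forming myelinating cells, had 44.7, 34.4 and 38.2 FPKM and 32.9, 35.4 and 25.6 FPKM (log2 change -0.32, adjusted p = 0.188), with groups that overlapped. Vcan, a matrix proteoglycan, had 2.19 ± 0.178 FPKM and 2.43 ± 0.374 FPKM, and Enpp6, a choline-releasing enzyme of newly formed cells, 1.27 ± 0.107 FPKM and 1.18 ± 0.313 FPKM (SD, n = 3 each; adjusted p = 0.659 and 0.800). The summed FPKM of the 6 precursor genes was 52.8, 54.0 and 42.9 in Nex_cKO, all below the lowest control sum of 56.0, and that of the 30 other members was 1900, 1904 and 1696, below the lowest control sum of 2076. Mbp and Bcas1 dominate these sums. In bulk cortex, fewer cells of a type and less RNA per cell cannot be told apart.

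**Figure D4:**
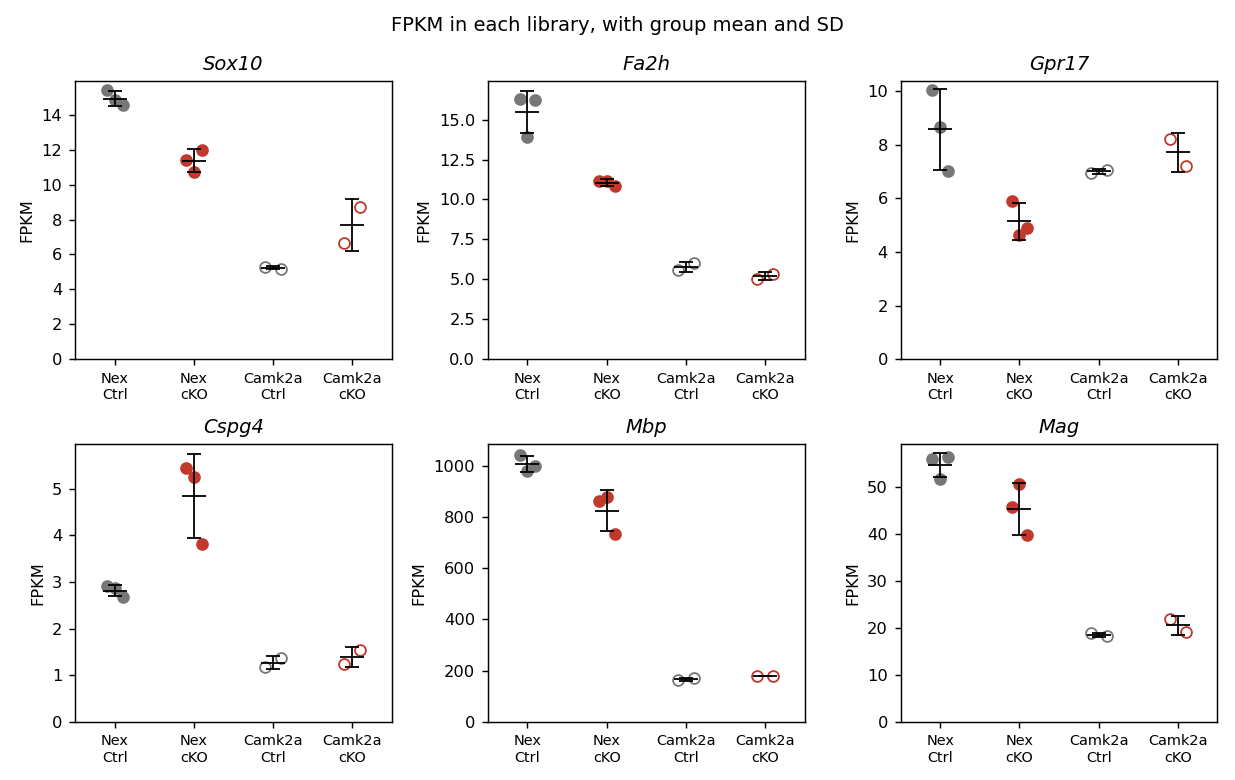
FPKM in each library of Sox10, Fa2h, Gpr17, Cspg4, Mbp and Mag, with points for libraries and bars for the group mean and SD (Nex, n = 3; Camk2a, n = 2); levels may be compared between groups of one model only. Nex_cKO points lie below every Nex_Ctrl point in 5 panels and above in the Cspg4 panel, and Sox10 lies higher in both Camk2a_cKO libraries than in their controls.

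In the Camk2a model no member passed the test, as was true of all 12919 genes (0%; limma gave 899 genes at an unadjusted p under 0.05, and voom on recovered reads called 1 gene, which was no member). The test took in 35 members, Enpp6 being under the filter at 0.543 to 0.961 FPKM. Of these, 21 were positive and 14 negative, next to 6142 positive and 6777 negative among all 12919 genes. The members' median log2 change was 0.026, next to -0.0090 for all genes. In 9 members both cKO libraries lay above both controls (16.2% of all genes) and in 4 below (21.1% of all genes). The summed FPKM of mature and lineage members was 761 and 752 in Camk2a_Ctrl and 791 and 767 in Camk2a_cKO.

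By role, the values went in different directions in the Camk2a model. The 4 transcription factors were all positive. Sox10 had 5.30 and 5.17 FPKM in Camk2a_Ctrl and 6.65 and 8.73 FPKM in Camk2a_cKO, from 278 to 448 reads each (log2 change 0.47, SE 0.14, unadjusted p = 0.0147, adjusted p = 0.569). Olig2 had 6.80 and 7.14 FPKM and 7.64 and 10.6 FPKM (log2 change 0.33, adjusted p = 0.750). In both genes Camk2a_cKO replicate 2 was the highest, and without it the log2 changes were 0.29 and 0.12. The 5 precursor genes tested were also all positive, at 0.018 to 0.15, with Gpr17 at 6.95 and 7.08 FPKM in Camk2a_Ctrl and 8.23 and 7.21 FPKM in Camk2a_cKO and Cspg4 at 1.16 and 1.37 FPKM and 1.23 and 1.54 FPKM.

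Of the 8 enzymes 6 were negative, with a median log2 change of -0.13, and Fa2h, Ugt8a, Enpp2 and Car2 had both cKO libraries below both controls. Fa2h had 5.56 and 5.99 FPKM in Camk2a_Ctrl and 5.02 and 5.36 FPKM in Camk2a_cKO (adjusted p = 0.868), and Ugt8a had 8.59 and 7.27 FPKM and 5.26 and 6.78 FPKM (log2 change -0.35, SE 0.14, adjusted p = 0.716). Among the 13 genes of myelin structure 7 were positive, among them Mbp (162 and 170 FPKM in controls, 179 and 177 FPKM in Camk2a_cKO), Mag (log2 change 0.14) and Opalin (0.29), and the 3 named lay above both controls. Mitochondrial transcripts moved with the groups in this table. Their summed FPKM was 50072 and 57203 in the lowest and highest control and 40901 and 43908 in the cKO libraries, with 13 of 13 negative and 12 wholly below the controls, and their part in the members' values was not tested.

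The change in the Nex model was then set against that in the Camk2a model. Of 10835 genes tested in both tables, 56 differed (0.517%), and of the members only Sox10 did. Its difference of changes was -0.83 (SE 0.15, adjusted p = 0.0370), from a fall in the Nex model and a positive value in the Camk2a model that did not pass the test. The call held without Nex_cKO replicate 2 or 3 and without Camk2a_cKO replicate 1, and was lost without any of the other 7 libraries (adjusted p 0.0635 to 0.151), with a filter of FPKM 5 (0.0539) and with quantile normalization (0.0508). The difference was -0.75 for Gpr17 (adjusted p = 0.126), 0.53 for Cspg4 (0.276) and -0.32 for Fa2h (0.328). Driver, age, table, gene models and sex-linked transcripts differ together between the models and cannot be told apart.

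Other genes of the same pathways were read from lists chosen with earlier results of these data known. Of 34 other myelin and oligodendrocyte genes tested in the Nex model, 1 was lower and none higher, next to 4.06% lower and 4.47% higher among all genes. Of the 34, 25 were negative (59.5% of all genes) and 10 lay wholly below the controls (18.9% of all genes), with a median log2 change of -0.14. Of 26 other genes of precursors and committed precursors 2 were lower and none higher, 17 were negative and 10 lay wholly below the controls, with a median log2 change of -0.13. Among them Sox8, a close relative of Sox10, fell from 13.6 ± 1.48 to 9.30 ± 1.29 FPKM (SD, n = 3 each; adjusted p = 0.0294).

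Neuronal partners of the lineage were also represented. The counts that follow stand next to 4.06% lower and 4.47% higher among all genes tested in the Nex model. Of all genes 59.5% were negative and 18.9% lay wholly below the controls. Of 15 node and paranode genes 2 were lower: the axonal potassium channel Kcna1 (29.7 to 22.9 FPKM, adjusted p = 0.0115) and its subunit Kcnab2 (156 to 124 FPKM, adjusted p = 0.0296). Of 28 signals to the lineage and their receptors 3 were lower: Tnfrsf21 (31.4 to 23.8 FPKM, adjusted p = 0.00811), the Nogo receptor Rtn4r (84.5 to 66.9 FPKM, adjusted p = 0.0227) and Pdgfa, the ligand of PDGFRα (19.4 ± 1.54 to 15.0 ± 0.636 FPKM; SD, n = 3 each; adjusted p = 0.0331). Of 32 genes of lipid synthesis and turnover 2 were lower, 26 were negative and 19 lay wholly below the controls (median log2 change -0.15). Among them Sqle, an enzyme of cholesterol synthesis, fell from 20.1 to 14.9 FPKM (adjusted p = 0.0243). None of 21 regulators of oligodendrocyte differentiation passed, the nearest being Hdac1 and Dnmt1 (both -0.25, adjusted p = 0.158 and 0.160). Of 5 genes seen in disease-associated oligodendrocytes, which astrocytes and microglia also express, Serpina3n rose from 4.57 ± 0.919 to 15.5 ± 0.219 FPKM (SD, n = 3 each; adjusted p = 9.67e-05), and C4b had 0.991 and 1.59 FPKM (adjusted p = 0.116). No gene of these lists passed in the Camk2a model.

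Markers of other cells and tissues moved between the Nex groups beside these values. Counts here and in the next paragraph stand next to 4.06% lower and 4.47% higher among all genes tested. Of 14 astrocyte markers Gfap rose (25.9 to 45.9 FPKM, adjusted p = 0.00605), and of 14 microglial markers Trem2 (11.7 to 18.1 FPKM, adjusted p = 0.00205) and Ctss (30.5 to 41.6 FPKM, adjusted p = 0.0240) rose. The summed FPKM of astrocyte markers was 1221 to 1310 in Nex_Ctrl and 1314 to 1339 in Nex_cKO, and that of microglial markers 261 to 321 and 313 to 359. Of 17 endothelial and mural markers Egfl7 (23.4 to 12.4 FPKM, adjusted p = 0.00689) and Cldn5 (39.9 to 25.5 FPKM, adjusted p = 0.0391) fell, with sums of 186 to 231 FPKM and 153 to 170 FPKM. All 3 tested red blood cell rows fell, with Hbb-b2 at 10.8 and 3.08 FPKM (adjusted p = 0.0114). None of 7 meningeal markers passed (Igf2 8.17 and 5.43 FPKM, adjusted p = 0.207). All 7 were negative and 3 lay wholly below the controls, and their median log2 change of -0.28 was further from 0 than the members' -0.18.

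Among neuronal lists, 4 of 14 markers of layer 6 and subplate fell (Syt6, Foxp2, Grik3 and Tle4), Syt6 from 6.77 to 2.53 FPKM (adjusted p = 0.000299), and their summed FPKM was 129 to 141 in Nex_Ctrl and 102 to 119 in Nex_cKO. Of 11 glutamatergic markers Tbr1 (65.8 to 47.6 FPKM) and Neurod6, the gene of the Nex driver, fell and Neurod2 rose (46.9 to 60.3 FPKM). How far the Cre allele itself enters the Neurod6 value was not tested. Of 12 GABAergic markers Gad2 rose (14.2 to 22.5 FPKM). Of 8 hippocampal markers 5 rose, among them Wfs1 (19.1 to 53.0 FPKM), Cpne7 (4.77 to 13.1 FPKM) and Fibcd1 (2.22 to 4.19 FPKM), while 1 of 7 thalamic markers (Ramp3, 12.7 to 5.06 FPKM) fell. Of 8 striatal markers 1 was lower and 6 were negative, with a median log2 change of -0.086. Schwann cells make peripheral myelin, and their gene Pmp2 was listed at 0 in all 10 libraries. None of 4 tested Schwann markers and none of 3 choroid plexus and ependymal markers passed. Other lists also had negative median log2 changes beside the members' -0.18. Layer 6 and subplate markers had -0.23 (12 of 14 negative) and endothelial and mural markers -0.15 (14 of 17 negative). Glutamatergic markers had -0.11 (7 of 11 negative). Medians were positive for astrocyte (0.017), thalamic (0.068), GABAergic (0.079), Schwann cell (0.11), microglial (0.17) and hippocampal (0.62) markers. How far differences in dissection or in the share of other cells enter the members' values was not tested.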

How the data were processed

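The authors deposited FPKM values in 2 tables, one per model, and per the submitters' processing notes used cutadapt, STAR, Cufflinks 2.2.1 and DESeq2 with builds mm10 and GRCm38, with no role given. Per the labels, RNA was extracted with RNAiso Plus and libraries were made with an NEBNext Ultra II RNA kit. The 2.5-month table has 29610 rows (4463 without a gene name, 1115 joining several names) and the 3-month one has 54532. Of rows that repeat a name, the one of highest mean FPKM was kept (1864 and 105 left out). A joined row counted for a member, and was matched between tables to its most expressed name where its other names had FPKM under 1. In the 3-month table FPKM times length gave whole reads for 100% of values (tolerance 0.1).

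Each table was fitted apart on log2(FPKM + 1), which understates changes of low genes, with limma 3.58.1 (lmFit, eBayes with trend) in R 4.3.3. Genes needed FPKM of at least 1 in as many libraries as the smaller group. P-values are two-sided and were Benjamini-Hochberg adjusted across each fit's genes, with a threshold of 0.05; "rose", "fell", "higher" and "lower" mean past it. The difference between models is an interaction over genes tested in both. Members and lists were chosen with earlier results of these data known, and lists other than the members are named by up to 3 called genes or the 2 of smallest p; Pdgfrb, Rgs5, Kcnj8, Slc17a7, Lims2 and Pmp2 were named after their values were seen. The alternatives tried were quantile normalization, a filter of FPKM 5 or none, a pseudocount of 0.1, median-ratio rescaling, no trend, robust moderation, a replicate block, summed repeated rows, voom on recovered reads, and leaving out each library. Some genes of these lists are not reported here.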

Additional observations from a re-analysis of the deposited data

Results flagged for a closer look

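The change from control to cKO differed between the Nex and the Camk2a model, by the interaction test, for 5 of the genes described. Sox10 is the only member among them (difference -0.83, adjusted p = 0.0370). Of the other lists, Serpina3n had a difference of 1.41 (adjusted p = 0.0317), Cpne7 of 1.14 (adjusted p = 0.0200), Fibcd1 of 1.08 (adjusted p = 0.0142) and Cldn5 of -1.20 (adjusted p = 0.0403), each on the log2(FPKM + 1) scale. Driver, age and table differ together between the models. Groups of 3 and 2 libraries were too small for a test of single outlying samples.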

How the results depend on the processing

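In the Nex model, Fa2h and Gpr17 kept their call under each alternative that kept all libraries, as did Cspg4 except with a filter of FPKM 5, where it was not tested and 0 members were higher, and Sox10 except with the replicate block (adjusted p = 0.0581). The members' median was -0.12 with quantile normalization and -0.13 with median-ratio rescaling, where the median of all genes was -0.015 and -0.0019. Over libraries left out, 0 to 5 members were lower and 0 to 1 higher. Of all genes, 197 were higher with a filter of FPKM 5 and 325 lower with median-ratio rescaling. With a library left out, 160 (without Nex_Ctrl replicate 1) to 685 (without Nex_cKO replicate 2) were lower and 443 to 635 higher. The share of higher among called genes was 52.4%, 65.1% with median-ratio rescaling and 36.2% with a filter of FPKM 5. With a library left out, that share ran from 45.8% (without Nex_cKO replicate 2) to 73.5% (without Nex_Ctrl replicate 1). Same-numbered replicates did not deviate together (correlations 0.017, -0.10 and -0.096 for Nex, 0.050 for Camk2a). With the replicate block 272 genes were lower in the Nex model and 29 differed between models, Sox10 not among them (adjusted p = 0.0886).

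In the Camk2a model genes called numbered 1 with a filter of FPKM 5, 5 with no intensity trend, 1 with robust moderation and 1 with voom, and the members' median was 0.083 with voom (0.045 for all genes) and 0.0051 to 0.061 over libraries left out. Where an arm was left with 1 library, its spread is assumed like that of the other. Between models, 33 genes differed with a pseudocount of 0.1, 286 with no filter, 6 with a filter of FPKM 5 and 15 to 94 over libraries left out.

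Signs of uncalled members that turned in the Nex model were Tspan2 (0.046 with quantile normalization, 0.015 with rescaling) and Galnt6 (0.012 with rescaling). Over libraries left out, Nex ranges that crossed 0 were Opalin -0.078 to 0.25, Tspan2 -0.13 to 0.076, Galnt6 -0.076 to 0.013, Lpar1 -0.16 to 0.032, Myrf -0.17 to 0.0063, Olig1 -0.30 to 0.016 and Enpp6 -0.18 to 0.025. In the Camk2a model with voom, Mog was 0.025, Cnp 0.0013 and Cldn11 0.040, and Cldn11 was 0.0047 with quantile normalization. Camk2a ranges that crossed 0 were Mog -0.087 to 0.023, Mobp -0.0030 to 0.21, Cldn11 -0.073 to 0.039, Ermn -0.39 to 0.033, Gjb1 -0.43 to 0.020, Mal -0.019 to 0.27, Tspan2 -0.032 to 0.28, Hapln2 -0.20 to 0.53, Tmem88b -0.27 to 0.056, Aspa -0.49 to 0.0023, Qdpr -0.052 to 0.10, Trf -0.029 to 0.21, Apod -0.095 to 0.60, Gsn -0.15 to 0.15, Lpar1 -0.32 to 0.17, Olig1 -0.033 to 0.077, Pdgfra -0.028 to 0.065 and Cspg4 -0.021 to 0.16. The cause of each was not tested.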
